A study of Homo sapiens with 6 samples.

Results

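The erythropoietin receptor gene and a group of red cell membrane genes were examined in K562 cells, a chronic myeloid leukemia (CML) cell line with erythroid features, with and without hyperoside. The genes were taken by symbol from the deposited count table: EPOR, the glycophorin genes GYPB and GYPC, the membrane skeleton genes ANK1, EPB41 and EPB42, and the blood group genes KEL and RHAG. All 8 were found among the 24960 genes of the table, and all 8 passed the filter on low counts. The control group held 3 libraries of K562 cells labelled Control, and the hyperoside group held 3 libraries of K562 cells labelled Hyperoside. Hyperoside, a galactoside of the flavonol quercetin, was used at 2 mM in the study's sequencing experiment, and the time before RNA extraction is not given in the sources used here. Nothing in the labels says whether the replicates were separate cultures, so p-values measure the spread between these libraries, which may be technical. A cell line grown in culture is a limited model of red cell development, since it divides without end and carries the BCR::ABL fusion.

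Erythropoietin binds EPOR on red cell precursors, and the receptor passes the signal on through the kinase JAK2 to the transcription factor STAT5, which switches on survival genes and the inhibitors that end the signal. The membrane of the red cell is held up by a lattice of spectrin on its inner side. Ankyrin (ANK1) ties this lattice to the anion exchanger band 3 with the help of protein 4.2 (EPB42), and protein 4.1 (EPB41) ties it to actin and to glycophorin C (GYPC). Glycophorins are heavily glycosylated surface proteins, and RHAG is needed for the Rh antigens to reach the surface. KEL is a surface endopeptidase that carries the Kell antigens and is linked to the protein XK.

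Positions of the genes on GRCh38 were taken from RefSeq, on the assembly version GRCh38.p14. EPOR lies on chromosome 19 from 11377207 to 11384314, KEL on chromosome 7 from 142941114 to 142962363, GYPB on chromosome 4 from 143995188 to 144019380, RHAG on chromosome 6 from 49605175 to 49636839 and EPB42 on chromosome 15 from 43197227 to 43225737, all on the minus strand. GYPC lies on chromosome 2 from 126656158 to 126696667 and EPB41 on chromosome 1 from 28887100 to 29120041, both on the plus strand. In the GENCODE 29 annotation, exons of EPOR overlap exons of RGL3 on the same strand, exons of EPB42 overlap those of AC068724.4 on the same strand, exons of EPB41 overlap those of TMEM200B on the opposite strand, and exons of ANK1 overlap those of the antisense gene AC113133.1. For the pairs on the same strand, reads from the overlapping stretches cannot be told apart by strand. The use of strand in the counting is not stated, so this may hold for the pairs on opposite strands too.

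RefSeq start sites with a window of 300 bases, 250 before the start and 50 from it on, were at hand for 7 of the 8 genes (9 windows), all but ANK1. Shown are those of EPOR and KEL, which rose with hyperoside, of RHAG, the most abundant of the genes, and of EPB42, the window with the most GATA letters. Capitals mark 2 short motifs read on both strands, AGATAA (or TTATCT), which is part of the site bound by GATA factors, and CACCC (or GGGTG), which is part of the site bound by erythroid Krüppel-like factors. No letters of the motifs overlapped in these windows.
EPOR, chr19:11384265-11384564, minus strand: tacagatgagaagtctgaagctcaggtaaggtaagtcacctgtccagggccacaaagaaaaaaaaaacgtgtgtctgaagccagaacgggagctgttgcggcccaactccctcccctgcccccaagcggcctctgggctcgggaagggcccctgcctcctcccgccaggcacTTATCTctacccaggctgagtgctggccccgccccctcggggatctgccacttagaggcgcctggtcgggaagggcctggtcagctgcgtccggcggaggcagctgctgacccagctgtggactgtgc
KEL, chr7:142962314-142962613, minus strand: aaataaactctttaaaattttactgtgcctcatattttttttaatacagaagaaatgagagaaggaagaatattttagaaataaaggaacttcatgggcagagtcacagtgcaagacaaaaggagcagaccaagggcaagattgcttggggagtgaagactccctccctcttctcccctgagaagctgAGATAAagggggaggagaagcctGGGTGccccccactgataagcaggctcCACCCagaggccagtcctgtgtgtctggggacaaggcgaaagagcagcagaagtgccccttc
RHAG, chr6:49636790-49637089, minus strand: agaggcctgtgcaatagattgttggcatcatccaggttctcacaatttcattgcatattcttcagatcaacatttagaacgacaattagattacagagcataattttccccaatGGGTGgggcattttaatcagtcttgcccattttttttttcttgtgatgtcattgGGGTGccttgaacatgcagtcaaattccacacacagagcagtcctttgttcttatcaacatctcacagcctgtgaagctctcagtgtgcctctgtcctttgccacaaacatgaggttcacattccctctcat
EPB42, chr15:43220969-43221268, minus strand: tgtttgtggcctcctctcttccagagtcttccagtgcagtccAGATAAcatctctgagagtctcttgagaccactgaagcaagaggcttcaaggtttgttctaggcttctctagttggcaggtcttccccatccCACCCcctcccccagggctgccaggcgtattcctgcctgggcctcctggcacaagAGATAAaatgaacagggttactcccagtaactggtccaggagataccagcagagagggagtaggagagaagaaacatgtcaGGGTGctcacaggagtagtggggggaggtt

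The EPOR window held TTATCT, beginning 78 bases before the start site, and no CACCC letters. The KEL window held AGATAA 62 bases before the start, with GGGTG 39 bases and CACCC 12 bases before it. In the RHAG window GGGTG occurred 136 and 82 bases before the start, and AGATAA did not occur. The EPB42 window, which belongs to a start site inside the span given above, held AGATAA 208 and 61 bases before the start, CACCC 116 bases before it and GGGTG 20 bases after it. AGATAA or its reverse complement was in 5 of the 9 windows (those of EPOR, EPB42 and KEL and both of GYPB, which overlap each other), and 10.3% of all 35116 windows of this length held it. CACCC or its reverse complement was in 5 of the 9 windows, of as many genes, and in 59.9% of all windows. Only these exact letters were searched, so a window without them may hold another form of a site. These matches describe letters in the sequence and were not tested as binding sites. EPOR and KEL, which rose, and GYPB and EPB42, which were not called, held AGATAA or its reverse complement. Both windows of EPB41, which rose, held neither motif, and ANK1, which rose as well, had no window. Whether the motifs go with a rise was not tested.

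Library totals lay between 35613283 and 36754725 counts, and TMM normalization factors lay between 0.957 and 1.03. The spread between replicates exceeded counting error, with a chi-square statistic per degree of freedom of 6.56 to 24.9 over pairs of libraries. Control replicate 1 stood apart from the other control libraries, at 21.8 and 24.9 beside 6.56 between control replicates 2 and 3, and results that rest on it are given without it. Among hyperoside libraries the values were closer, with replicate 2 at 10.9 and 14.0 beside 7.59 between replicates 1 and 3. The label K562 was checked against erythroid markers, all 15 of which were tested, and their summed level was 6749 to 8349 CPM, counts scaled to library size, in control libraries and 6256 to 7333 CPM in hyperoside libraries. Of these markers 4 rose (26.7%, against 22.1% of all tested genes), 6 fell (40%, against 23.2%) and 5 were not called. Granulocytic and monocytic markers summed to 71.5 to 75.1 CPM in control libraries and 115 to 126 CPM in hyperoside libraries. Of 7 tested members 4 were called higher (57.1%, against 22.1% of all tested genes) and 0 lower (against 23.2%). Those called, named after their values were seen, were CEBPE (0.98 ± 0.07 to 13.0 ± 1.45 CPM, log2 fold change 3.73), ITGAM (0.83), LYZ (0.53) and CSF1R (1.81, at 35 counts or fewer in each library). MPO, ELANE and CD14 had at most 10 counts in any library. Megakaryocytic markers summed to 25.7 to 31.6 and 34.7 to 38.9 CPM, with GP1BA and SELP at 3 counts or fewer in each library. All 3 tested megakaryocytic markers were called, against 45.3% of all tested genes, with ITGB3 (log2 fold change 1.57) and GP6 (1.45) higher and ITGA2B (-0.36) lower. Lymphoid markers summed to 32.2 to 38.8 and 41.0 to 46.0 CPM, most of it from CD3D, which was called higher (33.1 ± 4.19 to 40.5 ± 2.06 CPM, SD, n = 3 per group, log2 fold change 0.29), while CD2 and MS4A1 had 3 counts or fewer. The part of other cell types in the results below was not tested. In bulk RNA, fewer cells of a type and less RNA per cell cannot be told apart.

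Hyperoside-treated cells carried more EPOR, ANK1, KEL and EPB41 transcripts than control cells. The 4 other genes, GYPB, GYPC, RHAG and EPB42, were not called. EPOR rose 2.33-fold, ANK1 1.46-fold, KEL 1.40-fold and EPB41 1.20-fold. Differences between groups were tested for 15095 genes with the quasi-likelihood method of edgeR, and a gene was called at a Benjamini-Hochberg adjusted p under 0.05. By this rule 4 of the 8 genes were called, against 45.3% of all tested genes. With hyperoside 4 were higher, against 22.1%, and 0 were lower, against 23.2%. At an unadjusted p under 0.05, 1 of them, GYPB, was lower, and DESeq2 and limma-voom also called 0 lower. GYPB was called lower with no filter on low counts (edgeR adjusted p = 0.00276) and without control replicate 2 (edgeR adjusted p = 6.08e-04). With the study's further threshold of a fold change above 2, EPOR alone was an upregulated DEG, against 6.43% of all tested genes, and 0 of the 8 were downregulated DEGs, against 3.76%. The libraries of the 2 groups did not overlap in 4 of the 8 genes, against 54.4% of all tested genes. Over the 8 genes the log2 fold change had a median of 0.37, beside 0.003 over all tested genes. Without control replicate 1 the 4 genes were still called higher. EPB42 was then called higher too (log2 fold change 1.27, edgeR adjusted p = 0.0169), which made 5 of the 8 genes.

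**Figure D1:**
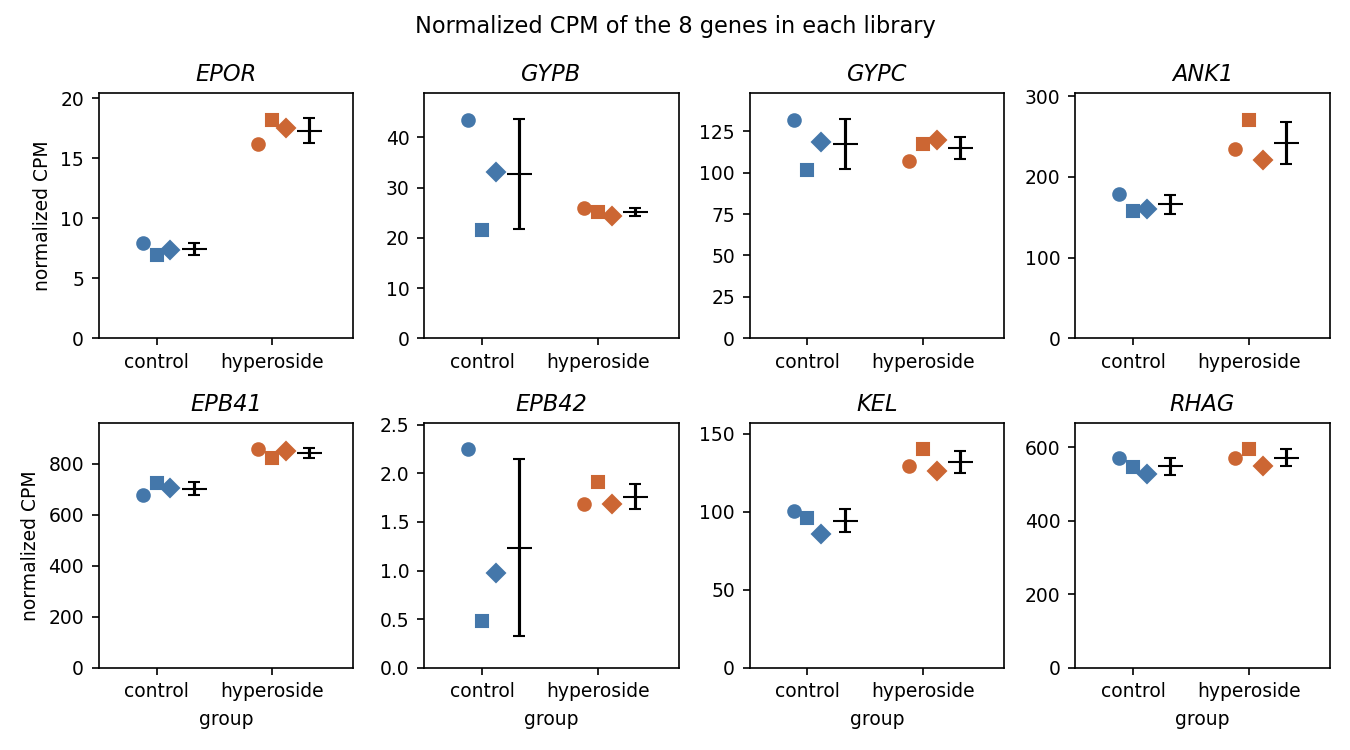
Normalized CPM (vertical axes, each starting at 0) of the 8 genes in the 3 control (blue) and 3 hyperoside (orange) libraries, with replicates 1, 2 and 3 as circle, square and diamond and the mean ± SD in black. In EPOR, ANK1, EPB41 and KEL every hyperoside library lies above every control library, and GYPB and EPB42 spread widely among control libraries.

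**Figure D2:**
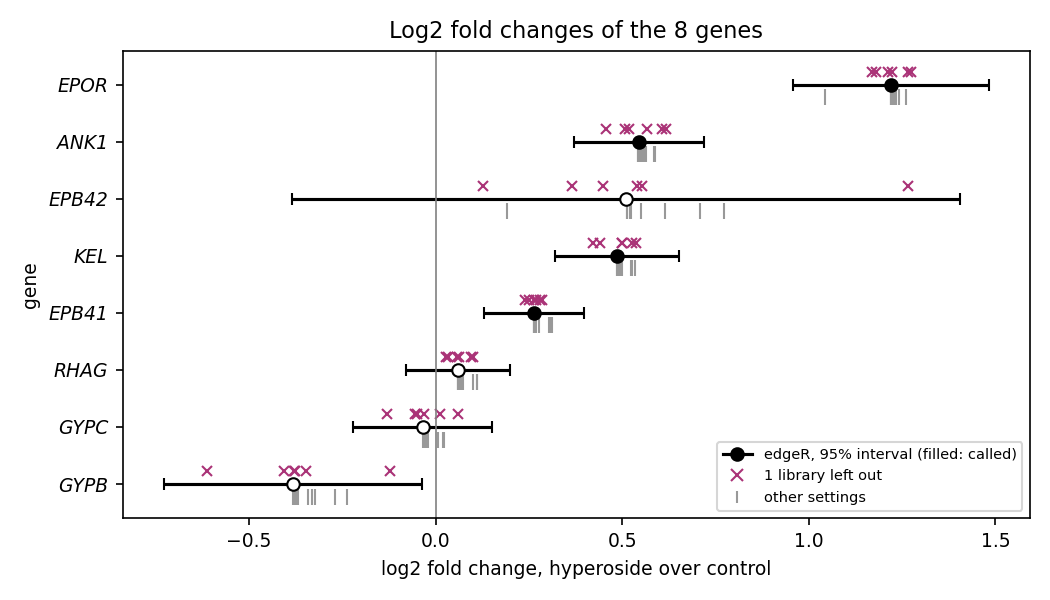
Log2 fold changes of hyperoside over control (horizontal axis) for the 8 genes, with the edgeR estimate and its 95% interval as a circle and bar (filled where called), estimates with 1 library left out as crosses, and other settings as ticks. EPOR stands at 1.22, and the estimates for EPB42 run from 0.13 to 1.27 when 1 library is left out.

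EPOR, the receptor through which erythropoietin keeps red cell precursors alive, was counted 280, 244 and 264 times in control libraries and 594, 669 and 632 times in hyperoside libraries, in the order of replicates 1, 2 and 3 as in all lists of 3 values below. Scaled to library size these were 7.96, 6.93 and 7.39 CPM against 16.2, 18.2 and 17.5 CPM. The lowest hyperoside library was above the highest control library. The means were 7.43 ± 0.52 and 17.3 ± 1.03 CPM (SD, n = 3 per group), a log2 fold change of 1.22 (SE 0.12, 95% interval 0.96 to 1.48, edgeR adjusted p = 4.65e-07). Among the 15095 tested genes, 823 had a larger log2 fold change. The 3 genes whose log2 CPM profile over the 6 libraries lay nearest to that of EPOR, each centred on its control mean, were ERMAP at a distance of 0.14, RCSD1 at 0.16 and PRKAR1B at 0.20. The median distance over all tested genes was 2.19, and the nearest genes lie below it by construction. Genes picked in this way also have log2 fold changes close to that of EPOR. ERMAP encodes the membrane protein that carries the Scianna blood group antigens, and its log2 fold change was 1.20 (SE 0.08, edgeR adjusted p = 3.16e-09).

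Of 28 genes listed for EPO receptor signalling, 27 were tested, of which 8 rose, 7 fell and 12 were not called. The shares of 29.6% higher and 25.9% lower stand beside 22.1% and 23.2% of all tested genes, and the median log2 fold change was 0.05. The ligand gene EPO was counted 2, 5 and 1 times without hyperoside and 1, 1 and 0 times with it and was not tested. At this depth a count of 0 allows up to 3 counts, by counting error alone. JAK2, the kinase bound to the receptor, had a mean of 51.8 ± 7.06 CPM without hyperoside and 57.8 ± 4.26 CPM with it (SD, n = 3 per group) and was not called (log2 fold change 0.16, 95% interval -0.05 to 0.37, adjusted p = 0.207 from edgeR). STAT5A had 158, 146 and 136 CPM without hyperoside and 193, 244 and 190 CPM with it, and it rose by a log2 fold change of 0.51 (SE 0.09, edgeR adjusted p = 2.12e-04). The more abundant STAT5B, named after its values were seen, was not called, and its groups overlapped. It had 293 ± 23.3 and 272 ± 8.76 CPM without and with hyperoside (log2 fold change -0.11, 95% interval -0.26 to 0.05, edgeR adjusted p = 0.245).

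The genes of the list that fell with the smallest adjusted p were SOCS3, SH2B3 and CISH. CISH, a target of STAT5 that binds the receptor and damps the signal, had 140, 124 and 120 CPM without hyperoside and 66.4, 68.0 and 71.0 CPM with it. SOCS3, which blocks JAK2, had 25.8, 22.7 and 21.5 CPM without hyperoside and 8.56, 6.89 and 9.05 CPM with it. SH2B3, the adaptor LNK that restrains JAK2, had 148, 132 and 140 CPM without hyperoside and 68.6, 78.6 and 66.0 CPM with it. In all 3 genes every hyperoside library lay below every control library. Their log2 fold changes were -0.90 for CISH, -1.51 for SOCS3 and -0.98 for SH2B3, with edgeR adjusted p of 7.04e-08, 4.96e-08 and 5.01e-08. PIM1 (-0.49), SOCS2 (-0.30), GRB2 (-0.28) and ERFE (-0.95), named after their values were seen, made up the rest of the genes that fell. PTPN6, a phosphatase that also ends the signal, was called higher, from 13.3 ± 1.96 to 16.8 ± 1.63 CPM (SD, n = 3 per group), although its groups overlapped (log2 fold change 0.34, SE 0.13, edgeR adjusted p = 0.0372), and was named after its values were seen. Of 2 more inhibitors of the list, also named after their values were seen, SOCS1 was not called, with every hyperoside library above every control library (9.73 ± 0.11 and 11.7 ± 1.09 CPM, log2 fold change 0.26, edgeR adjusted p = 0.109), and CBL was not called either (0.05, 95% interval -0.14 to 0.24). The genes that rose with the smallest adjusted p were PIK3R1, the regulatory subunit of PI3 kinase (log2 fold change 0.97), FOXO3, a transcription factor held in check by PI3 kinase signalling (0.68), and IRS2, a docking protein (0.78).

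**Figure D3:**
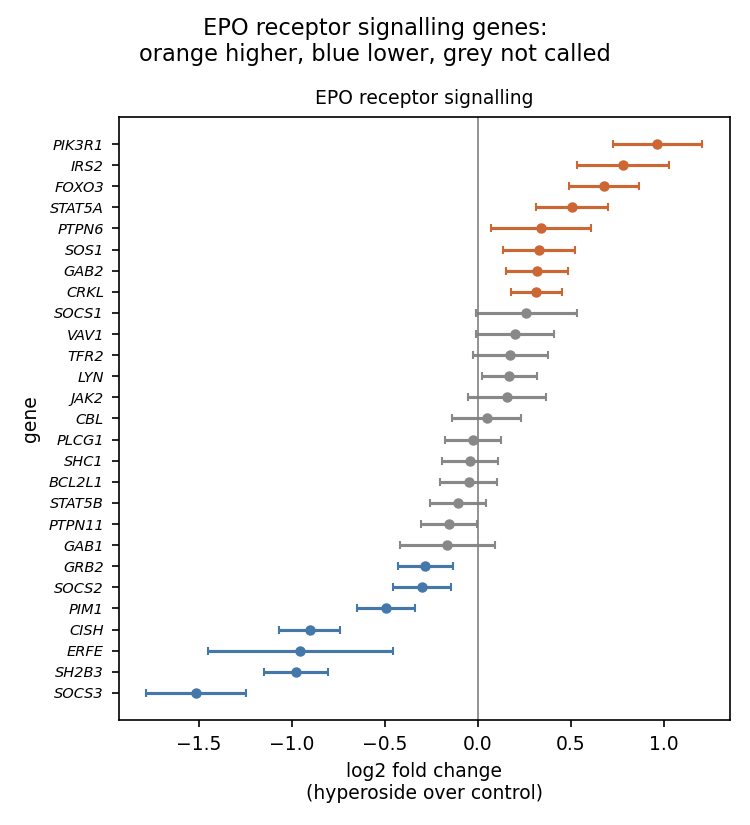
Log2 fold changes of hyperoside over control (horizontal axis) for the 27 tested genes listed for EPO receptor signalling (vertical axis), as edgeR estimates with 95% intervals, in orange where higher, blue where lower and grey where not called. PIK3R1 at 0.97 stands at the top and SOCS3 at -1.51 at the bottom, and JAK2 at 0.16 is not called.

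Of the membrane skeleton genes, ANK1 and EPB41 rose and EPB42 was not called. ANK1 had 179, 158 and 161 CPM without hyperoside and 235, 271 and 221 CPM with it. The groups did not overlap, and the means of 166 ± 11.6 and 242 ± 25.7 CPM (SD, n = 3 per group) gave a log2 fold change of 0.54 (SE 0.08, 95% interval 0.37 to 0.72, edgeR adjusted p = 3.73e-05). Without hyperoside replicate 2, the highest library, it was 0.46 (edgeR adjusted p = 5.16e-04). EPB41 had 675, 725 and 705 CPM without hyperoside and 856, 821 and 848 CPM with it. Its means, 702 ± 25.1 and 842 ± 18.2 CPM (SD, n = 3 per group), differed by a log2 fold change of 0.26 (SE 0.06, 95% interval 0.13 to 0.40, edgeR adjusted p = 0.0027), the smallest change among the 4 genes called.

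EPB42, which stabilises the bond between ankyrin and band 3, was the least abundant of the 8 genes, with 79, 17 and 35 counts without hyperoside and 62, 70 and 61 counts with it. These were 2.25, 0.48 and 0.98 CPM against 1.69, 1.91 and 1.69. Control replicate 1 was above all hyperoside libraries and control replicates 2 and 3 were below them, so the groups overlapped. The log2 fold change was 0.51 (SE 0.43, 95% interval -0.39 to 1.41, edgeR adjusted p = 0.350). Without control replicate 1 it was 1.27, with an edgeR adjusted p of 0.0169, and the gene was then called higher. The SD of the control libraries, 0.91 CPM, was large beside their mean of 1.24 CPM, whereas that of the hyperoside libraries was 0.13 CPM at a mean of 1.76 CPM.

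Of 15 further genes listed for the membrane skeleton and the band 3 complex, all 15 were tested, of which 3 rose, 4 fell and 8 were not called, with a median log2 fold change of -0.11. The shares of 20% higher and 26.7% lower are near the 22.1% and 23.2% of all tested genes. SPTB, which encodes the erythroid β-spectrin, had means of 81.0 ± 5.73 and 74.6 ± 9.48 CPM without and with hyperoside (SD, n = 3 per group) and was not called (log2 fold change -0.12, 95% interval -0.31 to 0.08, edgeR adjusted p = 0.311). SLC4A1, the gene of band 3, had 4.61, 4.49 and 4.42 CPM without hyperoside and 3.13, 3.70 and 3.85 CPM with it. Although its groups did not overlap, it was not called (log2 fold change -0.34, 95% interval -0.75 to 0.07, adjusted p = 0.171 from edgeR). The genes that rose were ACTB (log2 fold change 0.63), the β-actin gene whose protein forms the short filaments at the nodes of the lattice, FLOT2 (0.33), a lipid raft protein, and ADD1 (0.21), an adducin that caps these filaments. DMTN, the actin-bundling protein dematin (-0.77), and the tropomyosin genes TPM1 (-0.55) and TPM3 (-0.24) fell, as did ADD3 (-0.25), which was named after its values were seen.

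Neither GYPC nor GYPB was called. GYPC, whose protein anchors protein 4.1 to the membrane, had 132, 102 and 119 CPM without hyperoside and 107, 117 and 120 CPM with it. The groups overlapped, and the log2 fold change was -0.03 (SE 0.09, 95% interval -0.22 to 0.15, edgeR adjusted p = 0.776). A change of GYPC as large as that of ANK1 lay outside this interval. GYPB, which carries the S and s antigens, had 43.5, 21.6 and 33.2 CPM without hyperoside and 25.9, 25.1 and 24.4 CPM with it. Control replicate 2 was below and control replicates 1 and 3 were above all hyperoside libraries. Its log2 fold change was -0.38 (SE 0.16, 95% interval -0.73 to -0.04, edgeR adjusted p = 0.0668). Without control replicate 2 it was -0.61, with an edgeR adjusted p of 6.08e-04, and without control replicate 1 it was -0.12, with 0.442.

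GYPB has near-identical copies in the genome, GYPE among them, so the counting could split or drop reads among these genes, and their values are uncertain to that extent. GYPE, named after its values were seen, had 62.9, 50.1 and 55.5 CPM without hyperoside and 38.5, 35.8 and 40.7 CPM with it. Every hyperoside library was below every control library, with a log2 fold change of -0.55 (SE 0.10, edgeR adjusted p = 1.46e-04). Whether the changes of GYPB and GYPE differ was not tested.

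RHAG and KEL, both carriers of blood group antigens, differed in what was seen. RHAG, a membrane channel protein needed for the Rh antigens to reach the surface, had 571, 547 and 526 CPM without hyperoside and 571, 594 and 549 CPM with it. The groups overlapped, with means of 548 ± 22.5 and 571 ± 22.3 CPM (SD, n = 3 per group) and a log2 fold change of 0.06 (SE 0.07, 95% interval -0.08 to 0.20, edgeR adjusted p = 0.484). The Rh antigen genes themselves, named after their values were seen, were both called higher. RHD had 51.0, 55.1 and 43.9 CPM without hyperoside and 81.2, 84.4 and 84.5 CPM with it (log2 fold change 0.74, adjusted p = 2.81e-06 from edgeR). RHCE had 68.2, 66.3 and 55.4 CPM without hyperoside and 75.5, 73.9 and 80.2 CPM with it (log2 fold change 0.27, adjusted p = 0.0167 from edgeR). RHD and RHCE are close copies of each other, so reads may be split between them. Per length, RHD stood at 0.0423 to 0.0510 times the FPKM of RHAG in the control libraries and at 0.0720 to 0.0779 times in the hyperoside libraries.

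KEL had 100.5, 96.3 and 86.1 CPM without hyperoside and 129, 140.1 and 126 CPM with it. All hyperoside libraries were above the control libraries, and the means of 94.3 ± 7.38 and 132 ± 7.19 CPM (SD, n = 3 per group) gave a log2 fold change of 0.49 (SE 0.08, 95% interval 0.32 to 0.65, edgeR adjusted p = 7.5e-05). XK, the gene of the protein that is linked to KEL at the surface, had 95.9, 99.4 and 105 CPM without hyperoside and 172, 168 and 174 CPM with it. Its log2 fold change was 0.77 (SE 0.07, edgeR adjusted p = 1.35e-07). The FPKM of KEL was 3.41 to 4.38 times that of XK in the control libraries and 3.03 to 3.49 times in the hyperoside libraries, ranges that overlapped.

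Of 24 other genes listed as carriers of blood group antigens, 22 were tested, of which 10 rose, 5 fell and 7 were not called. This was 45.5% higher and 22.7% lower, beside 22.1% and 23.2% of all tested genes. The median log2 fold change was 0.08. The rises with the smallest adjusted p were those of ERMAP, XK and CD44, a hyaluronan receptor that carries the Indian antigens (log2 fold change 0.77). The falls with the smallest adjusted p were those of ABCB6, the porphyrin transporter of the Langereis antigen (-1.02), and ABCG2, an efflux pump that carries the Junior antigen (-2.72). ABCG2 was low throughout, with 4.83, 3.52 and 4.53 CPM without hyperoside and 0.38, 1.25 and 0.30 CPM with it. Of the genes not tested, SLC14A1 had at most 3 counts in any library, and ACKR1 was counted 6, 6 and 22 times without hyperoside and 2, 2 and 3 times with it.

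**Figure D4:**
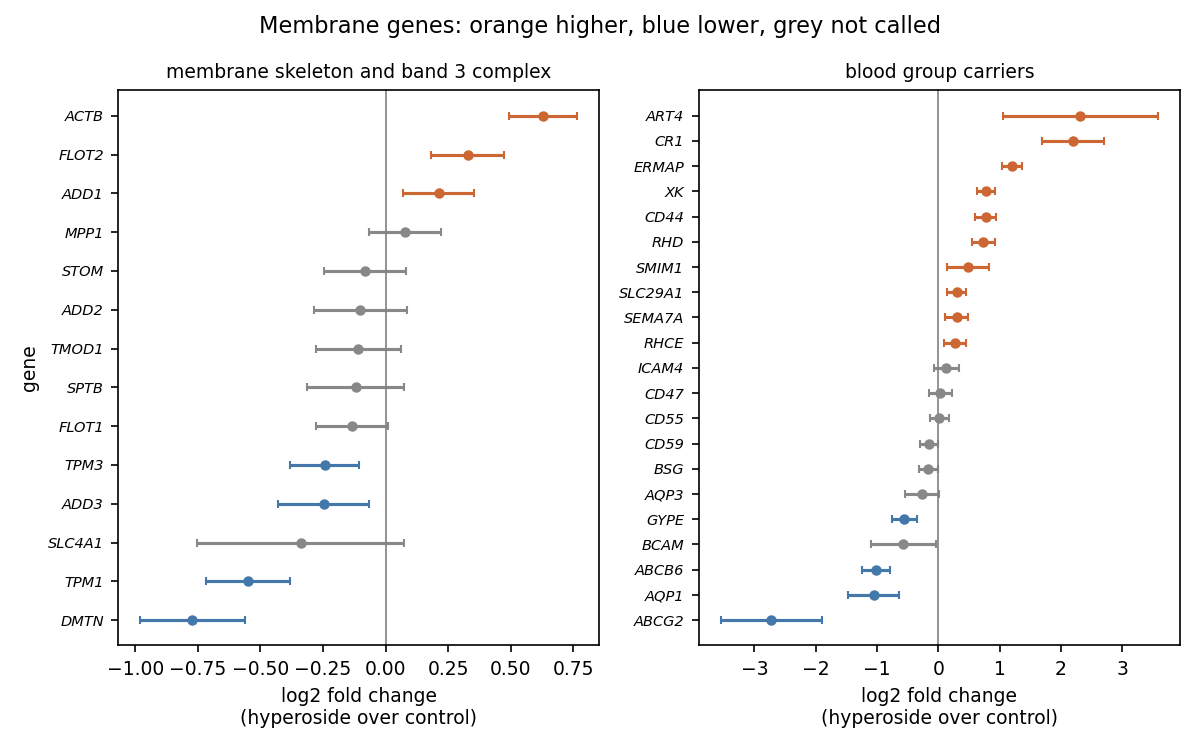
Log2 fold changes of hyperoside over control (horizontal axes, on different scales) for tested genes of the membrane skeleton and band 3 complex (left) and tested blood group carriers (right), as edgeR estimates with 95% intervals, in orange where higher, blue where lower and grey where not called. The left panel runs from DMTN at -0.77 to ACTB at 0.63, with SPTB at -0.12, and in the right panel ERMAP stands at 1.20 and ABCG2 at -2.72.

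Relatives of the 8 genes that serve other tissues were also measured. Of 27 listed paralogs 24 were in the table and 15 were tested, of which 7 rose and 5 fell, with a median log2 fold change of 0.27. These shares were 46.7% and 33.3%, beside 22.1% and 23.2% of all tested genes. EPB41L1 and EPB41L3, the neuronal-type relatives of EPB41, rose from 4.15 ± 0.44 to 15.7 ± 2.40 CPM and from 8.98 ± 2.47 to 27.0 ± 1.51 CPM (SD, n = 3 per group), log2 fold changes of 1.92 and 1.59 (adjusted p of 3.25e-08 and 2.60e-07 from edgeR), while EPB41L5 fell (-0.58). EPB41L2, named after its values were seen, had a log2 fold change of -0.08 (95% interval -0.24 to 0.07) and was not called. MME, the gene of neprilysin and like KEL a zinc endopeptidase of the membrane, rose from 48.5 ± 7.80 to 172 ± 15.3 CPM (log2 fold change 1.83, adjusted p = 3.69e-10 from edgeR), and ECE1, another enzyme of this family, fell (-0.61). ANK3, the ankyrin of axons and epithelia, rose from 68.1 ± 9.38 to 123 ± 2.84 CPM (log2 fold change 0.85) and was named after its values were seen. Among the cytokine receptors of the class of EPOR, PRLR had 0 counts in every library.

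Levels of the 8 genes were compared with each other per length, as the authors' FPKM. RHAG had 261 ± 4.61 FPKM in the control group (SD, n = 3), above 99.2% of the genes with a count. GYPC followed at 55.3 ± 6.37 FPKM, then EPB41 at 43.0 ± 2.39, KEL at 35.4 ± 2.05 and ANK1 at 17.0 ± 0.82. GYPB stood at 5.64 ± 1.80 FPKM, EPOR at 3.03 ± 0.17 and EPB42 at 0.36 ± 0.25. In the control group no library of a gene overlapped those of its neighbour in this order, although GYPB came near EPOR, with 3.75 FPKM in its lowest library against 3.16 in the highest of EPOR. In the hyperoside group RHAG had 282 ± 12.3 FPKM, and GYPC (55.9 ± 2.80), EPB41 (53.4 ± 1.30) and KEL (51.4 ± 2.92) each overlapped their neighbour, so their order there could not be told from their spread. ANK1 stood at 25.7 ± 2.80 FPKM. EPOR, at 7.29 ± 0.40 FPKM, had moved above GYPB, at 4.49 ± 0.18, and EPB42 again stood last at 0.53 ± 0.04. In the ratio of EPOR to GYPB the control replicates had 0.432, 0.758 and 0.525 and the hyperoside replicates 1.47, 1.72 and 1.69. The FPKM values divide by the gene lengths the authors used, which ran from 2058 bases for RHAG to 16040 bases for EPB41, so the order depends on these lengths.

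**Figure D5:**
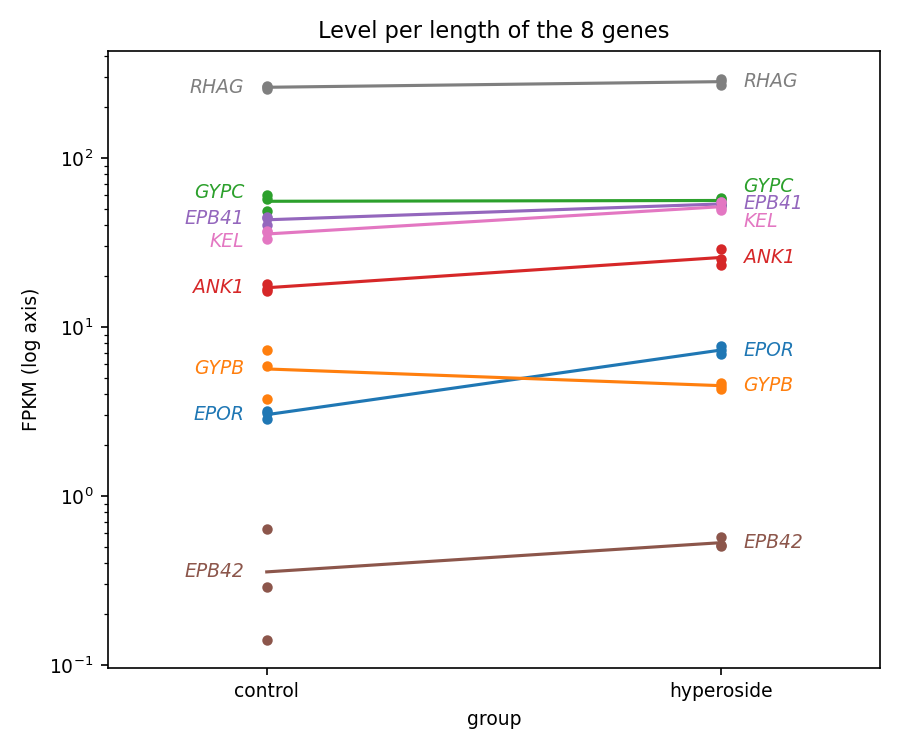
FPKM (vertical axis, logarithmic) of the 8 genes in the control and hyperoside groups, with a point for each of the 3 libraries of a group and a line between the group means. RHAG lies highest and EPB42 lowest in both groups, and the lines of EPOR and GYPB cross.

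In the deposited annotation all 8 genes carry the term plasma membrane, as do 24.3% of the 16737 genes with any term. GYPC, EPB41 and EPB42 carry the term cortical cytoskeleton, which 20 genes in all carry, and ANK1, EPB41 and EPB42 the term structural constituent of cytoskeleton, which 88 carry. Among these 4 annotated genes ANK1 and EPB41 were called higher and EPB42 and GYPC were not called.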

How the data were processed

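Total RNA of K562 cells was sequenced in 6 libraries, grouped by their titles. Per the labels the submitters used fastp, HISAT2 and HTSeq on hg38, with versions not given in the sources used here. The authors deposited raw counts per gene and FPKM values, which are the same counts divided by gene length and library total. All other columns are annotation, of which only identifiers, descriptions and GO terms were used.

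Counts were filtered with filterByExpr (minimum count 10, minimum total 15), TMM-normalized and compared with the quasi-likelihood test of edgeR 4.0.16 in R 4.3.3, with the condition as the only term. The study used DESeq, which was not run. The 15095 tested genes held 99.9% of counts. P-values were adjusted over all tested genes by the Benjamini-Hochberg method. CPM values use TMM-scaled library totals, and ± marks the SD of 3 libraries. The standard error is the log2 fold change divided by the square root of F. The steps were tested on simulated counts. Alternatives used DESeq2 1.42.0, limma 3.58.1 and log2(FPKM + 1) or log2(FPKM + 0.1). Tables and plots were made in Python 3.11.15 with pandas 2.3.3 and matplotlib 3.10.9.

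The 8 genes and the lists were chosen with earlier results of these data known. Named are all 8 genes, up to 3 called genes of each list and direction by adjusted p, the partners SPTB, SLC4A1, JAK2 and STAT5A, and the 3 nearest profiles of EPOR, which also had the smallest adjusted p of the 8 genes. Profiles were log2 CPM with a prior count of 2, compared by Euclidean distance. Promoters and positions came from RefSeq (GRCh38.p14) and overlaps from GENCODE 29. Some listed genes are counted in their lists but not reported here.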

Additional observations from a re-analysis of the deposited data

How the results depend on the processing

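EPOR, ANK1, KEL and EPB41 kept their direction and stayed called, and RHAG stayed uncalled with the same direction, in all 15 alternatives run for each. With 1 library left out in turn, log2 fold changes ran from -0.61 to -0.12 for GYPB, from -0.13 to 0.0592 for GYPC and from 0.13 to 1.27 for EPB42. GYPB (-0.37) was called lower with no filter on low counts (edgeR adjusted p = 0.00276), beside adjusted p of 6.08e-04 to 0.442 over its alternatives, and the cause was not tested. GYPC, not called under any alternative, turned to 0.00508 with upper-quartile factors, to 0.0205 with log2(FPKM + 1) and to 0.021 with log2(FPKM + 0.1), and to 0.0592 and 0.0115 without control or hyperoside replicate 1, and the cause was not tested. With a fold change above 2 also required, 1 of the 8 genes and 1537 of all genes were called, in place of 4 and 6841. Counts of called genes in the 4 lists stayed within 1.5 times in all 15 alternatives.

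Same-numbered libraries did not deviate together (correlations of deviations from the group means of -0.08, -0.03 and -0.03), so the numbers were not taken as pairs. With the replicate block 4 of the 8 genes and 6129 of all genes were called, and EPOR stood at 1.22. The depth of 17 to 79 counts limits EPB42.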
